A study of Mus musculus with 15 samples.

Results

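The transcripts of 10 genes of hepatic de novo lipogenesis were followed in liver mRNA-seq of 15 female C57BL/6 mice. The genes were Fasn, Acaca, Acacb, Acly, Scd1, Elovl6, Srebf1, Me1, Mlxipl and Thrsp, and they were found among the 55450 gene identifiers of the count table by their symbols. The list follows their place in the pathway, and it was drawn up with earlier results of these data known. All 10 passed the filter on low counts, as did 15808 genes in all. The Adult group (A1 to A5) consisted of mice labelled as 6 months old and the Old group (O1 to O5) of mice labelled as 22 months old, and both received corn oil as vehicle. The PDX group (P1 to P5) consisted of mice also labelled as 22 months old and given Protectin DX, a lipid mediator made from docosahexaenoic acid, at 30 ng per g of body weight in corn oil. All groups received daily oral gavage for 9 weeks and ate chow without restriction. The labelled ages are those at the start of the study, and the mice were some months older when the livers were taken at its end. There was 1 library per mouse, and no Adult mouse was given PDX. Mice were euthanized between morning and late afternoon in batches, and the batch of each mouse was not given in the sources used here, so no value within a batch could be computed.

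De novo lipogenesis turns surplus carbohydrate into fatty acids, and the liver is one of its main sites after feeding. Citrate leaves the mitochondrion and is cut to acetyl-CoA, which is carboxylated to malonyl-CoA and built into palmitate with reducing power from NADPH. Palmitate is then elongated and desaturated, mainly to oleate. The genes of the pathway are controlled largely by transcription factors that respond to insulin (SREBP-1c) and to sugar (ChREBP), and they are known to be low in fasting.

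The promoters of Fasn and Mlxipl are shown because they hold letters read by regulators named in the results, the CCAAT box bound by the NF-Y complex and the E-box (CACGTG). Each window is the 250 bases before a RefSeq start site in GRCm38.p6, written 5′ to 3′ on the strand of the gene, with matches to these motifs on either strand in capitals. The Fasn window is at chr11:120824548-120824797 on the minus strand, and the Mlxipl window at chr5:135089640-135089889 on the plus strand.
Fasn: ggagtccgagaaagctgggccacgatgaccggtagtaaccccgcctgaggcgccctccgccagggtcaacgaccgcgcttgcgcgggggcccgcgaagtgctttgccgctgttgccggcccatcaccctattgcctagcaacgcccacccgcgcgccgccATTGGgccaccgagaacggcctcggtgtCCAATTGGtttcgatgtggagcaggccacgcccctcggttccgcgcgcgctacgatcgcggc
Mlxipl: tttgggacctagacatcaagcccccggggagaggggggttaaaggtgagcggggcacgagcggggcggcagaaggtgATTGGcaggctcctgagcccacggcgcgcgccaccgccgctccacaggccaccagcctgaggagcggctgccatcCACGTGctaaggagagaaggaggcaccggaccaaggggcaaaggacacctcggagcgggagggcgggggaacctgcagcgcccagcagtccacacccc
The Fasn window held 3 CCAAT boxes, at -90 to -86, -62 to -58 and -59 to -55 from the start, and the last 2 of them share letters on opposite strands. The Mlxipl window held an E-box at -98 to -93 and a CCAAT box at -173 to -169. Windows were at hand for 9 of the 10 genes, 13 windows in all, since some genes have several starts. A CCAAT box was found in 7 of these 13 windows and in 33.8% of 32851 mouse windows of the same length, and an E-box in 1 of 13 and in 6.02%. The letters TCACNCCAC, searched for as a sterol regulatory element, were found in 1 of the 13 windows, a downstream start of Mlxipl, and in 1.05% of all windows. These matches describe the letters and not occupied sites.

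The libraries held 22424383 to 36070835 counted read pairs in Adult, 25480180 to 29069346 in Old and 26113995 to 30139181 in PDX mice. Levels are given as CPM, the counted read pairs of a gene per 1000000, after scaling by the trimmed mean of M values (TMM), a correction for library composition whose factor was 0.884 to 1.33. Differences are log2 fold changes from the quasi-likelihood test of edgeR fitted to all 15 mice, with Benjamini-Hochberg adjustment over the 15808 genes, and an adjusted p below 0.05 was taken as a change. O2 and O5 stood apart in these libraries. O2 had the TMM factor of 1.33 (others up to 1.08), O5 had the lowest level of the 15 mice for 28.4% of genes, and the labels give them weekly body weight changes of 3.07% and -3.55%, against -1.20% to 0% in the other Old and PDX mice. O5 also had the highest frailty index (0.56, others up to 0.33). Results that rest on these mice are therefore given with and without them. In whole liver, fewer cells of a type and less RNA per cell cannot be told apart.

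The first comparison asked how the genes differed between Old and Adult mice. All 10 had a log2 fold change below 0, with a median of -0.75, while the median of all genes tested was 0.07 and 43.2% of them were below 0. The spread within the Old group was wide, however, and 0 of 10 genes passed an adjusted p of 0.05 in edgeR, where 6.78% of all genes did. At an unadjusted p below 0.05 there were 3 of 10 (Scd1, Me1 and Mlxipl; 27.7% of all genes). At an adjusted p below 0.25, the limit the study used between PDX and Old mice, there were 5 of 10 (Acaca, Scd1, Srebf1, Me1 and Mlxipl; 35.5% of all genes). The Wald test of DESeq2 called 3 of the 10 genes lower in Old (Me1 with an adjusted p of 0.0128, Mlxipl with 0.0232 and Scd1 with 0.0367), where it called 9.09% of 29060 genes. That base includes genes with few counts that the edgeR fit left out, so the DESeq2 shares cannot be set beside those of edgeR. With limma on the deposited log2 values, Me1 alone was called (adjusted p = 0.0483; 4.12% of genes). For Scd1 and Me1, every Old mouse lay below every Adult mouse, as was so for 4.48% of genes.

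**Figure D1:**
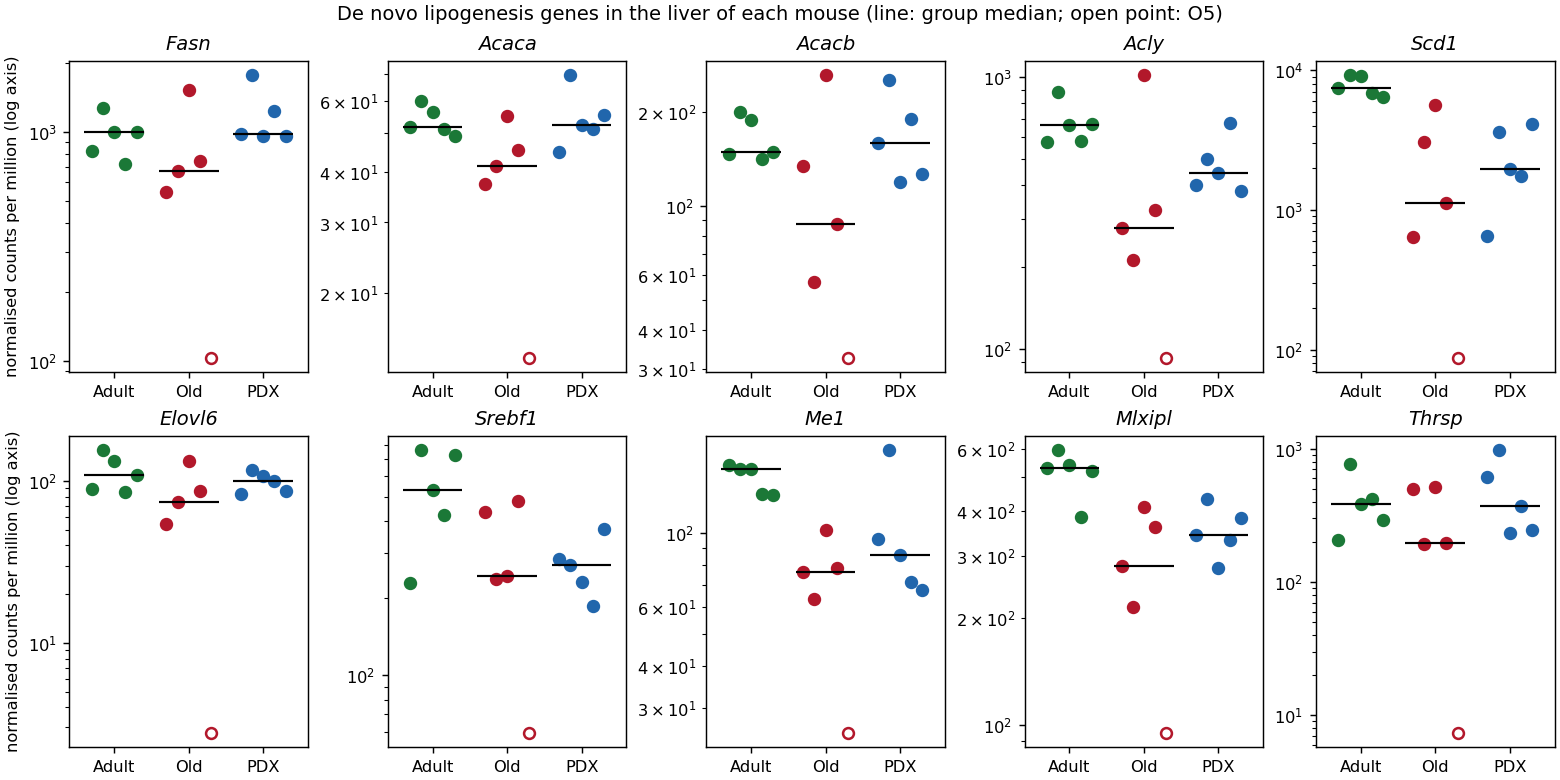
Normalised CPM (log axis, a scale for each gene) of the 10 lipogenesis genes in each of 5 Adult, 5 Old and 5 PDX mice, with a line at the group median and O5 as an open point. O5 is the lowest of the 15 mice in every panel, and Scd1 and Me1 are the genes for which no Old mouse reaches the Adult range.

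Among the regulators, Mlxipl (chromosome 5, 135089890 to 135138382, plus strand, GRCm38) encodes ChREBP, which switches on glycolytic and lipogenic genes when sugar is plentiful. Its level was 531, 595, 539.8, 387 and 520.3 CPM in A1 to A5 and 279.9, 215, 413, 361 and 94.8 CPM in O1 to O5. O3 alone of the Old mice lay within the Adult range. In Old over Adult, Mlxipl had a log2 fold change of -0.92 (SE 0.29, adjusted p = 0.0660). Mlxipl in the PDX mice had 344, 434, 277, 333 and 382 CPM, and P2 was the only PDX mouse within the Adult range.

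Srebf1 (chromosome 11, 60199089 to 60222581, minus strand) encodes SREBP-1, and the counts per gene do not separate its insulin-responsive 1c form from 1a. Its levels were 229, 759.8, 529.5, 422 and 728 CPM in the Adult mice, 435, 238, 245, 480.0 and 59.3 CPM in the Old mice and 286, 269, 232, 187 and 374 CPM in the PDX mice. The Adult mice already spanned 3.32-fold, with A1 below 4 of the 5 Old mice, so the groups overlapped. The log2 fold change of Old over Adult was -0.87 (SE 0.44, adjusted p = 0.207). Srebf1 overlaps Rai1 on the opposite strand, which had 6291 counts over all mice against 155071 for Srebf1, and the counting used the strand.

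Thrsp (chromosome 7, 97412938 to 97417730, minus strand) encodes Spot 14, a thyroid hormone-responsive protein that promotes fatty acid synthesis. Levels of 207, 769, 383, 421 and 292 CPM were found in the Adult mice and 496, 192, 515, 197 and 7.40 CPM in the Old mice. O1 and O3 were above the Adult median of 383 CPM, and O5 was 69.6-fold below O3. Thrsp had a log2 fold change of -0.56 (SE 0.71, adjusted p = 0.645), with an interval of 2 SE on each side from -1.98 to 0.86. In the PDX mice Thrsp had 613, 974, 234, 369.7 and 248 CPM.

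Of the enzymes that supply carbon and reducing power, Me1 (chromosome 9, 86581371 to 86695953, minus strand), the cytosolic malic enzyme that yields NADPH, came nearest to the threshold. Its level was 159.9, 155, 155, 130.4 and 130.3 CPM in Adult and 76.2, 63.5, 102, 78.4 and 25.3 CPM in Old mice, so the highest Old mouse lay below the lowest Adult mouse. This gave a log2 fold change of -1.08 (SE 0.31, adjusted p = 0.0517), with an Old mean of 47.3% of the Adult mean. PDX mice had 96.1, 177, 85.9, 71.5 and 67.5 CPM, where P2 was above all Adult mice and the other 4 were below them.

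Acly (chromosome 11, 100476353 to 100528000, minus strand), ATP-citrate lyase, makes cytosolic acetyl-CoA. It was counted at 576, 879, 668, 584 and 675 CPM in Adult and 278, 213, 1016, 326 and 93.0 CPM in Old mice. O3 was the highest of all 15 mice and the other 4 Old mice were below every Adult mouse. Acly had a log2 fold change of -0.81 (SE 0.45, adjusted p = 0.252), and without O3 it was -1.57, adjusted p = 0.00866. In PDX mice it was 401, 500.2, 445, 678 and 381 CPM, with P4 alone within the Adult range.

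Acaca (chromosome 11, 84129672 to 84401651, plus strand) and Acacb (chromosome 5, 114146535 to 114250761, plus strand) encode the acetyl-CoA carboxylases, of which the first makes malonyl-CoA for synthesis and the second makes it at the mitochondrion, where it restrains fatty acid oxidation. Acaca had 51.9, 59.9, 56.4, 51.2 and 49.1 CPM in Adult, 37.3, 41.4, 55.0, 45.5 and 13.9 CPM in Old and 45.0, 69.6, 52.5, 51.0 and 55.4 CPM in PDX mice. It was the gene with the narrowest Adult range, 1.22-fold from lowest to highest, and the log2 fold change of Old over Adult was -0.48 (SE 0.25, adjusted p = 0.235). For Acacb the levels were 147, 199.6, 189, 141 and 149 CPM, 134, 56.8, 263, 87.3 and 32.5 CPM and 159, 254, 119, 191 and 127 CPM in the same order. O3 exceeded every Adult mouse for Acacb while the other 4 Old mice lay below them, and the log2 fold change was -0.52 (SE 0.42, adjusted p = 0.436).

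Fasn (chromosome 11, 120805846 to 120824547, minus strand), fatty acid synthase, builds palmitate. The Adult mice had 825, 1265, 995, 723 and 994 CPM, the Old mice 544, 674, 1524, 746 and 103 CPM and the PDX mice 981, 1761, 953, 1230.3 and 956 CPM. O4 lay inside the Adult range, O3 above it and O1, O2 and O5 below it. The log2 fold change of Old over Adult was -0.42 (SE 0.45, adjusted p = 0.580), with an interval of 2 SE on each side from -1.32 to 0.48. It was -0.90 without O3 and -0.14 without O5.

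Elovl6 (chromosome 3, 129532355 to 129638495, plus strand) elongates palmitate to stearate. It had 88.7, 155, 132, 85.3 and 109 CPM in Adult, 54.5, 74.1, 133, 87.2 and 2.78 CPM in Old and 83.2, 117, 108, 100.0 and 86.7 CPM in PDX mice. Elovl6 had a log2 fold change of -0.70 (SE 0.55, adjusted p = 0.436) in Old over Adult. O3 and O4 were within the Adult range and O5 was 47.9-fold below O3.

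Scd1 (chromosome 19, 44394455 to 44407879, minus strand), stearoyl-CoA desaturase 1, makes oleate and palmitoleate, and it had the largest difference of the 10. Its level was 7500.4, 9196, 9046, 6841 and 6472 CPM in A1 to A5, a range of 1.42-fold. In O1 to O5 it was 639, 3038, 5623, 1119 and 87.4 CPM, and in P1 to P5 it was 650.1, 3607, 1954, 1735 and 4093 CPM. Every Old and every PDX mouse was below every Adult mouse. The Old mean was 26.9% and the PDX mean 30.8% of the Adult mean. The log2 fold change of Old over Adult was -1.89 (SE 0.75, adjusted p = 0.118), and that of PDX over Adult was -1.70 (SE 0.75, adjusted p = 0.211). At most 4 read pairs in any mouse were counted for its close paralog Scd3 and at most 5 for Scd4, and reads that fit more than 1 place in the genome were left out by the authors.

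**Figure D2:**
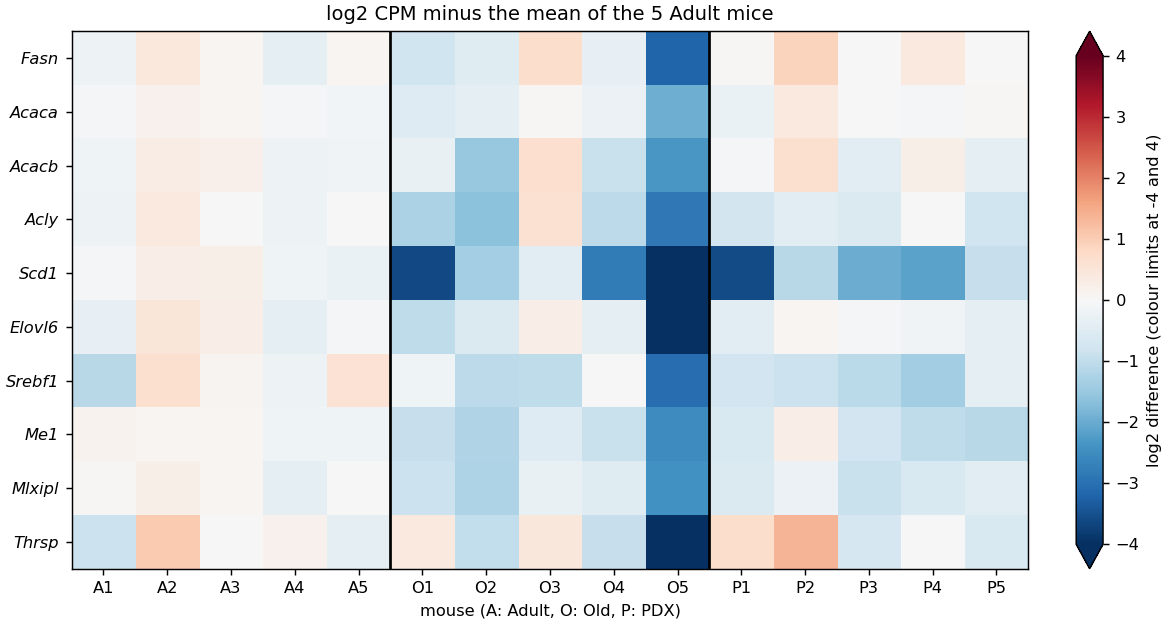
Level of the 10 genes in each of the 15 mice as log2 CPM minus the mean of the 5 Adult mice (blue: lower; red: higher; colours end at -4 and 4, and black lines part the groups). O5 is the darkest column, O3 is near or above the Adult level for most genes, and the Scd1 row is blue in all 10 Old and PDX mice.

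The Old mice did not form an even group for this pathway. O5 had the lowest level of the 15 mice for 10 of 10 genes, beside the share of 28.4% over all genes tested. O3 was the highest Old mouse for 9 of the 10, the exception being Srebf1, for which O4 was the highest. The sum of the 10 genes was 520 CPM at the lowest and 9888 CPM at the highest in Old mice, against 9786 to 14033 CPM in Adult and 3658 to 8162 CPM in PDX mice. From the lowest to the highest mouse, the median over the 10 genes was 1.53-fold in Adult, 9.51-fold in Old, 2.56-fold in Old without O5 and 1.92-fold in PDX mice.

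The calls against the Adult group moved with these mice. Without O5, 2 of 10 genes were called lower in Old, Me1 (-0.87, adjusted p = 0.0354) and Mlxipl (-0.70, adjusted p = 0.0348), where 13.2% of all genes were called. Without O3, 5 of 10 were called lower, Acacb, Acly, Scd1 (-2.68, adjusted p = 0.0342), Me1 and Mlxipl, where 13.5% of all genes were called. Without both O2 and O5 there were 0 of 10 in edgeR, where 7.12% of 16275 genes were called. In DESeq2 there were 2 of 10 (Me1 and Mlxipl), where 6.78% of 28460 genes were. The direction was the same for all 10 genes in each of these fits.

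Markers of other states moved with O5. Its Igfbp1, which insulin represses, was 5504 CPM (20.4 to 728 in the other 14 mice), and its Cpt1a, the gate of mitochondrial fatty acid oxidation, was 865 CPM (135 to 415 in the others). Angptl4, a fasting-induced lipase inhibitor, was 311 CPM in O5 (14.6 to 145 in the others). Pklr, liver pyruvate kinase, was 5.95 CPM in O5 and 111 to 317 CPM in the others. Acadm, another of the fasting markers, did not stand out in O5. It was 188 CPM there, with 373 to 402 CPM in Adult, 114 to 329 CPM in Old and 144 to 312 CPM in PDX mice. Over the 8 fasting markers, the summed level was 5046 to 7534 CPM in Adult, 3645 to 12533 CPM in Old and 3420 to 6759 CPM in PDX mice, with the highest sum in O5. Between Old and Adult, 0 of 8 were called, where 6.78% of all genes were. The 12 clock genes summed to 310 to 828 CPM in Adult, 182 to 866 CPM in Old and 192 to 298 CPM in PDX mice. Dbp, a clock output gene, was 189 CPM in A4 and 56.7 CPM in O3 against 1.30 to 40.5 CPM in the other 13 mice. Per1, a further clock gene, was 276 CPM in O5 and 6.58 to 79.4 CPM in the other 14 mice. Food intake before death and the hour of death are not given per mouse, and their part in the lipogenic levels was not tested.

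Cell type markers were compared in the same libraries. Over all genes tested, 2.07% were called lower and 4.71% higher in Old over Adult, and 1.76% higher in PDX over Adult. All 8 hepatocyte markers were present. Their sum was 134104 to 145009 CPM in Adult, 50434 to 205470 CPM in Old and 110672 to 167477 CPM in PDX mice, lowest in O5. Alb made up the larger part of this sum in every mouse (34724 CPM in O5). Cps1, Ass1, Apoa1 and Apob were lower in O2 than in O5, and Alb, Ttr, Serpina1c and Cyp2e1 were lower in O5. In Old over Adult 2 of 8 were called lower. The log2 fold changes were -1.50 (SE 0.31, adjusted p = 0.0184) for Cyp2e1 and -1.25 (SE 0.35, adjusted p = 0.0476) for Ass1. The 8 leukocyte markers summed to 152 to 235 CPM, 172 to 1840 CPM and 364 to 846 CPM in the same order of groups, and 4 of 8 rose in Old over Adult (Prtn3, Mpo, Elane and Itgam). O2 had the highest leukocyte sum of the Old group and O5 the lowest. Mpo was 19.9 CPM in O2 and 0.68 to 1.66 CPM in the other Old mice. Itgam was 38.7 CPM in O2 and 2.53 to 10.7 CPM in the others, while Prtn3 was highest in O4 (63.1 CPM). No fit without O2 is given for these markers. The 5 acute-phase markers summed to 2455 to 2932 CPM in Adult, 4216 to 19758 CPM in Old and 7418 to 33954 CPM in PDX mice. In Old over Adult, 3 of 5 rose (Lcn2, Orm2 and Hp), and in PDX over Adult 5 of 5 did, with Saa1 and Saa2 added. Of the adipocyte markers, which matter because fat expresses the same pathway, Adipoq had 0 to 27 counts per mouse, Plin1 0 to 21, Retn 0 to 14, Adig 0 to 9 and Lep 0 to 4. The sum of the 8 was 1598 to 2962 CPM in Adult, 19.1 to 1592 CPM in Old and 185 to 919 CPM in PDX mice, of which Car3, which liver expresses as well, made up the larger part in every mouse except O5. Without Car3 it was 2.15 to 5.93 CPM, 1.11 to 19.0 CPM and 1.16 to 3.39 CPM, and the highest, in O5, was mostly Cidec (18.6 CPM). The part of leukocytes, inflammation and hepatocyte content in the lipogenic levels was not tested.

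The second comparison asked whether the genes differed between PDX and Old mice. In edgeR 0 of 10 genes passed an adjusted p of 0.05 or of 0.25 between PDX and Old mice, and 0.0% of all genes did. At an unadjusted p below 0.05 there were also 0 of 10, where 5.28% of genes were, and DESeq2 called 0 of 10 and 0.00344% of 29060 genes. The group ranges overlapped for all 10 genes, while 0.342% of all genes had ranges apart. The log2 fold change was above 0 for 9 of 10, with a median of 0.50, against -0.07 for all genes, of which 59.9% were below 0. Thrsp and Fasn had the largest values, 0.79 (SE 0.71, adjusted p = 0.808) and 0.71 (SE 0.45, adjusted p = 0.793). Acaca had 0.50 (SE 0.25, adjusted p = 0.793) with an interval of 2 SE from -0.01 to 1.01, and Me1 had 0.53 (SE 0.31, adjusted p = 0.793). The smallest value above 0 was that of Scd1, 0.20 (SE 0.73, adjusted p = 0.950), whose interval from -1.25 to 1.65 holds both decreases and increases. Srebf1 was the exception in sign, -0.11 (SE 0.43, adjusted p = 0.953). Leaving out O2 and O5 gave 0 of 10 calls again and turned the sign for Acly (-0.16, adjusted p = 0.953) and Scd1 (-0.03, adjusted p = 0.994). No PDX mouse was as low as O5 for any of the 10 genes.

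The third comparison, PDX with Adult mice, shares mice with both others and is given as values beside them. None of the 10 passed an adjusted p of 0.05 (0 of 10, and 2.66% of all genes), and 2 of 10 had an unadjusted p below 0.05 (Scd1 and Srebf1, with 20.6% of genes). DESeq2 called 0 of 10, and 4.82% of 29060 genes. Srebf1 had -0.99 (SE 0.44, adjusted p = 0.216). Scd1 was the gene with no overlap between PDX and Adult mice, as was so with all PDX mice below for 9.34% of genes. Acaca and Acacb had log2 fold changes of 0.03 and 0.04, with intervals of 2 SE from -0.48 to 0.53 and -0.79 to 0.87. The remaining values were 0.29 for Fasn, 0.23 for Thrsp, -0.20 for Elovl6, -0.49 for Acly, -0.54 for Mlxipl and -0.55 for Me1. The count of calls moved with the mice fitted, and the cause was not tested. When the 10 Adult and PDX mice were fitted alone, 4 of 10 genes were called lower in PDX, Scd1 (-1.69, adjusted p = 0.00691), Mlxipl (-0.53, adjusted p = 0.0122), Srebf1 (-0.97, adjusted p = 0.0246) and Acly (-0.48, adjusted p = 0.0467), where 29.6% of all genes were called. Without O2 and O5 in the fit there were 3 of 10 (Scd1, Mlxipl and Srebf1), where 24.6% were.

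**Figure D3:**
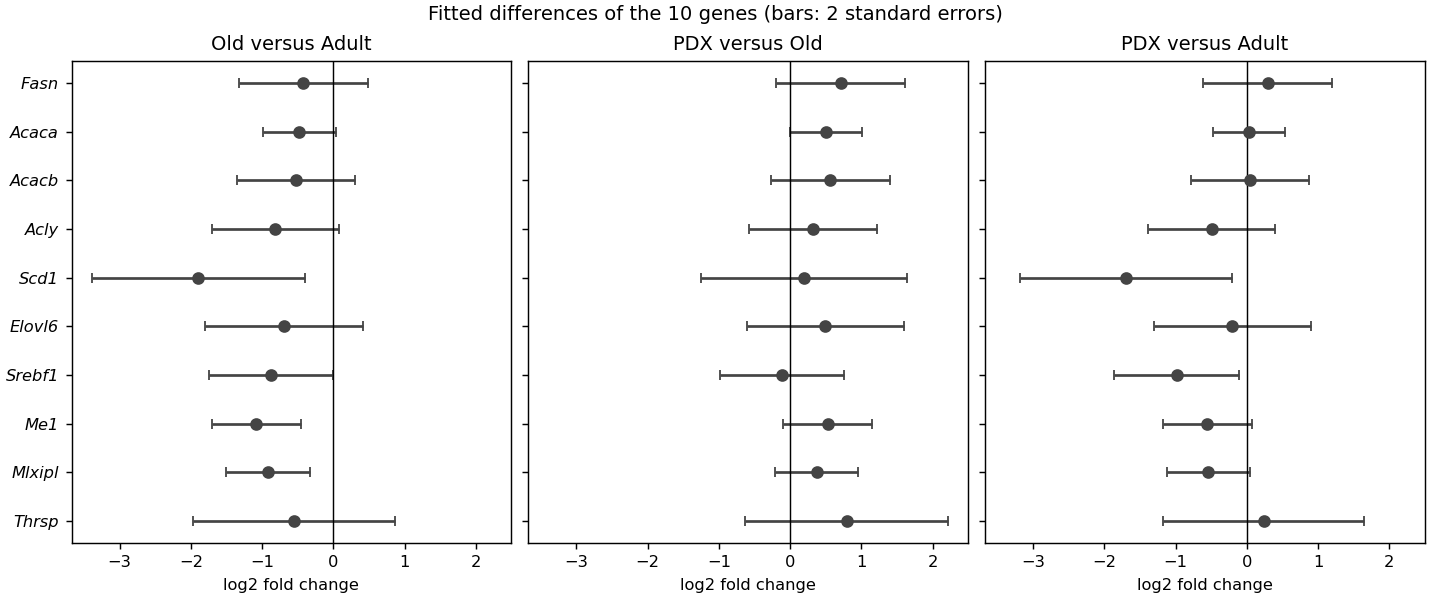
Log2 fold changes of the 10 genes in the 3 comparisons from the fit of all 15 mice, with bars of 2 standard errors and a line at 0. The points lie left of 0 for 10 of 10 genes in Old versus Adult, right of 0 for 9 of 10 in PDX versus Old, and on both sides in PDX versus Adult, where Scd1 is the farthest from 0.

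Scd1 and Fasn were set against each other within each mouse, a ratio that was chosen after the values had been seen. Adult mice had 6.51 to 9.47 Scd1 reads per Fasn read (median 9.09), Old mice 0.846 to 4.50 (median 1.50) and PDX mice 0.663 to 4.28 (median 2.05). The ranges of the Old and PDX groups lay below the Adult range, also in O3, whose Fasn was above all Adult mice and whose ratio was 3.69. When every tested gene was divided by Fasn in this way, 0.221% had all Old mice below all Adult mice and 3.98% had all PDX mice below all Adult mice. Among the 10 genes, Scd1 was the one below in Old, and Scd1, Acly, Me1 and Mlxipl were below in PDX. With Acaca as the divisor, Scd1 and Me1 lay below in both Old (0.601% of genes) and PDX mice (5.23%). Scd1 made up 64.0 to 72.7% of the summed CPM of the 10 genes in Adult, 16.8 to 63.2% in Old and 17.8 to 60.5% in PDX mice.

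**Figure D4:**
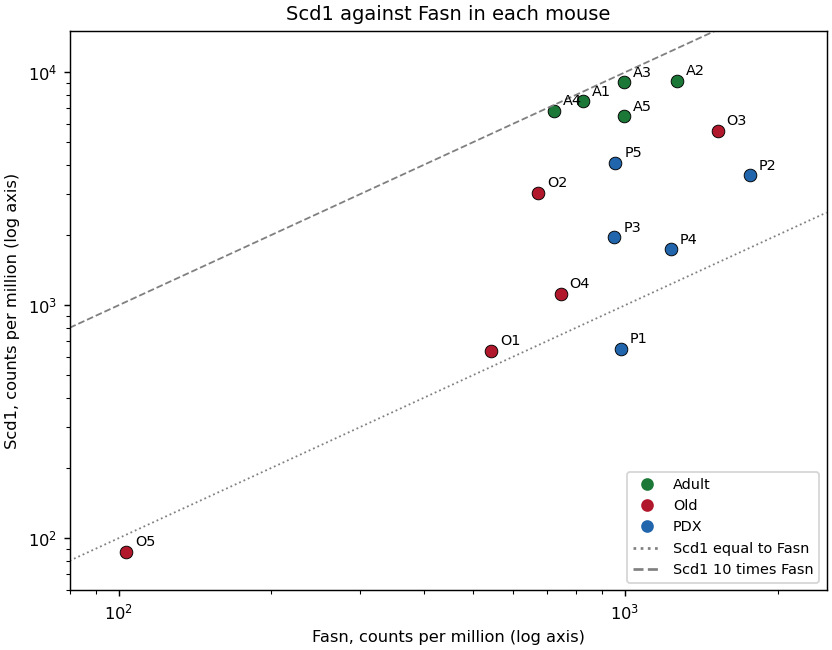
Scd1 against Fasn in CPM (both axes log) for each mouse, with grey lines where Scd1 equals Fasn (dotted) and where it is 10 times Fasn (dashed). The 5 Adult mice lie just under the dashed line, at 6.51 to 9.47 Scd1 reads per Fasn read, and the 10 Old and PDX mice lie farther below it, at 0.663 to 4.50, with O5 and P1 under the dotted line.

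Levels were compared between genes after division by the length of all exons in kilobases, as CPM per kb. In Adult mice Scd1 was first with a median of 1533 CPM per kb, and its range did not meet that of the next gene, Thrsp (175 CPM per kb). Acly (126), Mlxipl (95.9), Srebf1 (94.0) and Fasn (90.8) followed, then Me1 (40.3), Elovl6 (16.9), Acacb (15.5) and Acaca (3.04 CPM per kb). Neighbours in this order had ranges apart between Scd1 and Thrsp, Acly and Mlxipl, Fasn and Me1, Me1 and Elovl6, and Acacb and Acaca, and overlapped elsewhere. With the longest transcript as length, the Adult ranges of Acly (130.1 to 199 CPM per kb) and Mlxipl (107 to 164 CPM per kb) overlapped, so that separation depends on the length used. In Old and PDX mice Scd1 stayed first by median (229 and 399 CPM per kb), but its range met that of Thrsp, and Acaca was the one gene whose range stood apart from its neighbour. All exons of Acaca together span 17074 bases and its longest transcript 9513, and with the latter as length its Adult mean was 5.65 CPM per kb.

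The genes varied together across mice. After each group's mean was subtracted from log2 CPM, the 45 pairs of the 10 genes had Pearson correlations of 0.474 to 0.968 over the 15 mice (median 0.824), and a median Spearman correlation of 0.639. All pairs share the same libraries, and O5 weighs on them. Pairs of other genes were not set beside them, so the values are not shown to be particular to the 10. Without O5 the median of the pairs was 0.577, with a range of -0.24 to 0.886, and 7 of 45 were below 0. Srebf1 stood apart from the rest in this setting, with a median correlation of -0.0114 with the other 9, while Fasn had 0.729 and Acaca 0.664. The genes outside the list whose levels followed the 10 most closely, among 8812 genes of sufficient level, were Zfand4 (mean Pearson correlation 0.881), Pygl (0.872), Abcb11 (0.869), Cd99l2 (0.868) and Srd5a1 (0.867). Pygl is liver glycogen phosphorylase, Abcb11 the bile salt export pump and Srd5a1 a steroid 5-alpha-reductase. Without O5 these 5 ranked 4, 22, 7, 18 and 65 by the same measure.

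The steps around the pathway were read from lists of its neighbours, beside the 2.07% of all genes that fell and the 4.71% that rose in Old over Adult. Of 11 genes of acetyl-CoA, citrate and malonyl-CoA supply, Aco1, the cytosolic aconitase, fell in Old over Adult with a log2 fold change of -0.69 (SE 0.19, adjusted p = 0.0476), and 0 rose. The list had a median of -0.33. Of 9 genes of NADPH supply, 0 were called, and Me2 and Me3, mitochondrial malic enzymes, had 1.46 (SE 0.44, adjusted p = 0.0578) and 1.14 (SE 0.52, adjusted p = 0.169). Me2 was 28.5 CPM in O2 and 3.79 to 7.50 CPM in the other Old mice. Without O2 and O5 in the edgeR fit, Me2 had 0.75 (adjusted p = 0.0264). Me3 was near the floor, with 2 to 27 counts per mouse. All 9 enzymes and carriers of sugar entry had a log2 fold change below 0 (median -0.80) and 0 of 9 were called. Khk, ketohexokinase, had -0.97 (SE 0.33, adjusted p = 0.0742) and Gckr -0.80 (SE 0.33, adjusted p = 0.127). In PDX over Old, 8 of these 9 were above 0 (median 0.37) and 0 were called.

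Among other desaturases and elongation enzymes, 12 of 14 genes were tested and 1 rose in Old. This was Scd2, a desaturase isoform known from brain and from development, with 7.08, 11.1, 10.6, 8.97 and 8.09 CPM in Adult, 10.2, 21.7, 16.6, 12.7 and 24.7 CPM in Old and 12.7, 13.6, 19.8, 12.6 and 13.2 CPM in PDX mice. Its log2 fold change was 0.91 (SE 0.23, adjusted p = 0.0323). Acsl1, the main acyl-CoA synthetase of hepatocytes, was the 1 of 15 genes of acyl activation and glycerolipid synthesis that changed. It had 1239.7, 1077, 1030.0, 1129 and 1069 CPM in Adult, 437, 291, 915, 564 and 422 CPM in Old and 384, 417, 433, 491 and 602 CPM in PDX mice, so all Old and PDX mice lay below all Adult mice. Acsl1 fell in Old over Adult by 1.08 (SE 0.25, adjusted p = 0.0264) and in PDX over Adult by 1.25 (SE 0.25, adjusted p = 0.0156) on the log2 scale, where 0.898% of all genes fell in PDX over Adult.

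Of 12 genes of SREBP-1 processing and its partners, Nfyb fell in Old over Adult, -0.51 (SE 0.14, adjusted p = 0.0468). It encodes a subunit of NF-Y, the factor that reads the CCAAT box shown above for Fasn and Mlxipl. Of 11 nuclear receptors and cofactors, 0 were called, 9 were below 0, and the lowest unadjusted p belonged to Nr1h4, the bile acid receptor, with -0.80 (SE 0.25, adjusted p = 0.0606) and Thra, a thyroid hormone receptor, with -0.47 (SE 0.16, adjusted p = 0.0787). None of 7 partners and sugar-responsive targets of ChREBP was called. Fgf21, a hepatic hormone, had -1.28 (SE 0.78, adjusted p = 0.302) and Arrdc4 0.29 (SE 0.23, adjusted p = 0.431). The level of Fgf21 was 14.5 CPM in A1, 0.493 to 2.55 CPM in A2 to A5 and 0.469 to 2.96 CPM in Old mice. Its Adult median of 1.03 CPM lay below the Old median, so the sign of its fold change did not hold for the medians.

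Of 7 targets of the liver X receptor outside lipogenesis, 2 fell in Old, Abcg5 and Abcg8, which together form the sterol exporter of the canalicular membrane. Abcg5 had 149, 142, 115, 179 and 117 CPM in Adult, 57.9, 53.0, 62.9, 84.1 and 32.6 CPM in Old and 128, 95.3, 102, 75.7 and 56.8 CPM in PDX mice, with all Old mice below all Adult mice. Their log2 fold changes of Old over Adult were -1.27 (SE 0.25, adjusted p = 0.0148) and -1.20 (SE 0.25, adjusted p = 0.0194), and those of PDX over Old 0.66 (SE 0.24, adjusted p = 0.793) and 0.58 (SE 0.25, adjusted p = 0.793). The call was also made in 19 of 19 alternative fits for Abcg5 and in 16 of 19 for Abcg8.

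Of 11 genes of insulin signaling, Irs1 fell and Irs2 rose in Old over Adult. Irs1, an insulin receptor substrate, had -0.85 (SE 0.22, adjusted p = 0.0380), and it fell in PDX over Adult as well, -1.05 (SE 0.22, adjusted p = 0.0223). Irs2, the substrate that is known to rise in the fasted liver, had 29.1, 15.3, 20.0, 30.4 and 34.8 CPM in Adult, 26.9, 38.2, 42.4, 97.6 and 162 CPM in Old and 30.6, 29.0, 26.7, 29.3 and 31.3 CPM in PDX mice. O4 and O5 were the highest, and the log2 fold change was 1.50 (SE 0.40, adjusted p = 0.0391). Of 9 AMPK subunits and other kinases 0 were called, and Prkab2 and Prkaa2 had 0.68 (SE 0.29, adjusted p = 0.140) and -0.41 (SE 0.21, adjusted p = 0.205). Over these neighbours the calls were less steady than for the sterol exporter, being made in 12 of 19 alternative fits for Acsl1, 9 of 19 for Scd2, Irs1 and Irs2, 7 of 19 for Aco1 and 5 of 19 for Nfyb. Without O2 and O5, edgeR still called Acsl1 (-0.78, adjusted p = 0.0382), Abcg5 (-1.03, adjusted p = 0.0197) and Abcg8 (-0.96, adjusted p = 0.0423). It did not call Scd2, Irs1, Irs2, Aco1 or Nfyb there, and other genes of the lists, Me2 among them, gained a call.

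**Figure D5:**
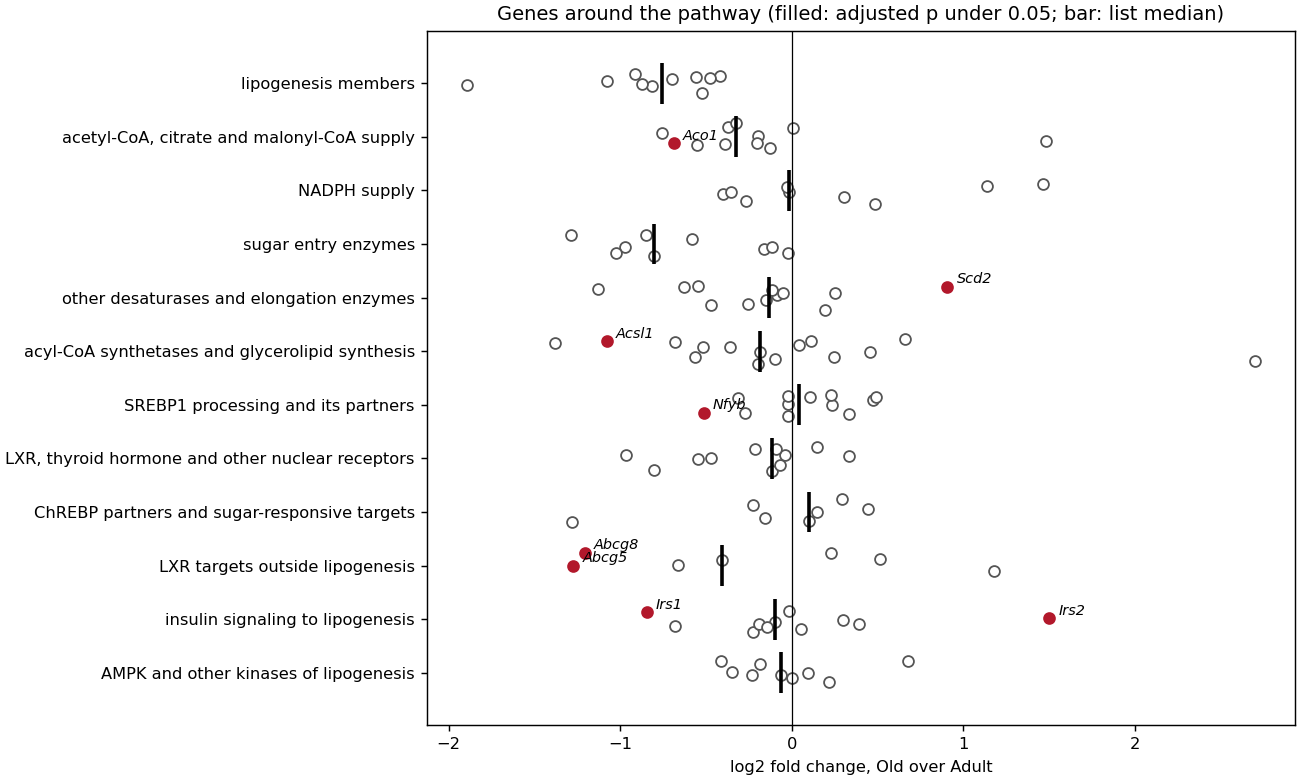
Log2 fold change of Old over Adult for each tested gene of the 10 lipogenesis genes and of 11 lists of neighbouring genes (filled and named: adjusted p below 0.05 in edgeR; open: not called; black bar: list median). The lipogenesis and sugar entry genes all lie left of 0 with medians of -0.75 and -0.80 and no filled point, and the 8 filled points belong to other lists.

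Body weight change per week, which the labels give for each mouse, was set against the levels in the 10 Old and PDX mice with treatment as a covariate. None of the 10 genes was called (adjusted p from 0.297 to 0.983), where 12.8% of the 15423 genes tested in these mice were. All 10 slopes were above 0 and ranged from 0.01 log2 units per percent for Acacb to 0.45 for Elovl6. Without O2 and O5, which hold the highest and the lowest weight change, 8 of 10 slopes turned below 0 and 0.0% of genes were called, so the slopes rest on these mice.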

How the data were processed

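Liver mRNA was sequenced from 15 female mice, 5 in each group, after poly(A) selection and strand-specific library preparation. The authors aligned 50-base read pairs to mm10 with STAR 2.6.0c and made the deposited gene counts with featureCounts (Subread 1.6.2) and Ensembl annotation 100, from uniquely aligned proper pairs on the same strand without mitochondrial genes. The authors also deposited log2-scale values from the variance-stabilizing transformation of DESeq2 1.23.10. FastQC 0.11.7 is named in the submitters' processing notes. All columns of both tables matched a sample, and each mouse's group came from the submitters' labels.

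Symbols, coordinates and exon lengths were taken from GENCODE M21 (GRCm38) for 55190 of 55450 identifiers, and promoter windows from RefSeq (GRCm38.p6). Counts were filtered with filterByExpr (minimum count 10, minimum total 15), scaled by TMM and tested with edgeR 4.0.16 in R 4.3.3, with group as the only term. DESeq2 1.42.0, limma 3.58.1 on the deposited log2 values, other scalings and filters, fits of the pair compared, a replicate block, fits leaving out mice and, for body weight, a fit without the treatment term were alternatives. Log2 CPM used a prior count of 2. Tables were handled in Python 3.11.15. On simulated data with 200 of 15808 genes changed by a log2 value of 2 in Old versus Adult, edgeR recovered 182, with 11 false calls. The changed genes were drawn from well-counted ones, and each gene had the same spread in all groups. The simulation held no outlying mouse and only this size of change. It therefore does not show how often changes like those of the 10 genes would be found in these mice.

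The 10 genes and all lists were chosen with earlier results of these data known. From each list the genes named were those past an adjusted p of 0.05 in Old or PDX versus Adult (at most 5) or, where none passed, the 2 with the smallest p in Old versus Adult. For likeness the 5 genes with the highest mean correlation and a mean log2 CPM of at least 3 were named. Pklr, Cpt1a, Angptl4 and the paralogs of Scd1 were named after their values were seen. The p-values set each group difference against the spread between separate mice. The main fit estimated that spread for each gene over the 3 groups together, although the Old mice spread more widely than the Adult and PDX mice. The range of depth in each group is given above, and counts of this size leave the spread between mice as the main error of the 10 genes.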

Additional observations from a re-analysis of the deposited data

Results flagged for a closer look

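In 3 of 30 combinations of gene and group, 1 mouse lay farther from the others than Dixon's 95% limit for 5 samples (a gap of 0.71 of the range), and chance flags about 1 in 20 groups. All were O5, the lowest of the Old mice. Acaca was 13.9 CPM in O5, a gap of 0.719 of the group's range, and the next Old mouse had 37.3 CPM. Elovl6 was 2.78 CPM in O5, a gap of 0.768, and the next had 54.5 CPM. Thrsp was 7.40 CPM in O5, a gap of 0.767, and the next had 192 CPM. The 3 genes share that library and are not independent flags.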

How the results depend on the processing

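In Old versus Adult the main test called 0 of the 10 genes, DESeq2 called 3, limma on the deposited values 1, and DESeq2 without O2 and O5, a fit chosen after seeing the data, 2. Leaving out 1 mouse at a time gave 0 to 5 calls, with 5 without O3 and 2 without O5. In PDX versus Adult the main count of 0 became 4 when the 10 mice of the pair were fitted alone (4 also in DESeq2) and 3 without O2 and O5 (3 also in DESeq2). Leaving out 1 mouse gave 0 to 0. In PDX versus Old every fit called 0. The related lists, whose sizes are given above, had 8 calls in Old versus Adult (6.78% of all genes) and 13 with DESeq2 (9.09% of 29060 genes). In PDX versus Adult they had 2 (2.66% of all genes), 27 without O2 and O5 (24.6%) and 6 with DESeq2 (4.82% of 29060 genes). Signs turned for PDX over Old without O2 and O5 in Acly (-0.16, and -0.16 with DESeq2) and Scd1 (-0.0256, and -0.0233 with DESeq2), and for Srebf1 with limma (0.15). Leaving out 1 mouse moved PDX over Old from -0.11 to 0.98 for Scd1 and from -0.37 to 0.14 for Srebf1, and PDX over Adult from -0.0761 to 0.0872 for Acaca, -0.15 to 0.15 for Acacb and -0.18 to 0.58 for Thrsp. Body weight slopes turned without O2 and O5 for Fasn (-0.23), Acaca (-0.19), Acacb (-0.27), Acly (-0.29), Scd1 (-1.92), Elovl6 (-0.17), Srebf1 (-0.17) and Mlxipl (-0.13), and without the treatment term for Acacb (-0.0034). With the longest transcript as length, Adult means were 5.65 CPM per kb for Acaca, 153 for Acly, 44.4 for Me1, 142 for Mlxipl and 296 for Thrsp. The median correlation of pairs was 0.577 without O5. The causes of these shifts were not tested.

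Same-numbered mice did not deviate together (mean correlation -0.168 for Old and Adult, 0.092 for PDX and Old and 0.031 for PDX and Adult). The other pairs had means of 0.044, -0.022 and -0.008 in the same order. With 5 same-numbered pairs in each comparison, these values cannot show whether the numbers hold a shared batch, and the main fit did not pair the mice. With a replicate block, 0 of 10 genes were called in each comparison, and the count over all genes in Old versus Adult was 237 against 1072. It was 105 in the fit of that pair alone and 2642 with DESeq2, which tested 29060 genes.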
